A study of Mus musculus with 2 samples.

Results

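Genes of the canonical Wnt pathway were followed through the oligodendrocyte lineage of the young mouse striatum after stroke. The 8 genes were Tcf7l2 and Ctnnb1, which carry the signal in the nucleus, and Axin2, Nkd1, Znrf3, Notum, Apcdd1 and Lef1, which are widely used as readouts of it. They were taken by gene symbol, and all 8 were found among the 31053 genes of the deposited tables. Cells came from the lateral striatum of male C57/BL6 mice whose middle cerebral artery had been occluded for 60 minutes on postnatal day 10 (MCAO, a model of stroke), with 2 weeks of reperfusion afterwards. The ipsilateral library held the striata of the occluded side and the contralateral library those of the opposite side of the brain, each pooled from 3 animals. Both libraries were sorted for the surface antigens A2B5 and/or O4, which mark glial progenitors and later lineage stages, so the contralateral side comes from animals with a stroke too and the sort decides which cells were seen.

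In canonical Wnt signalling, a Wnt ligand bound to Frizzled and LRP receptors stops a destruction complex built on Axin and APC from removing beta-catenin. Beta-catenin then joins DNA-binding proteins of the TCF/LEF family, among them TCF7L2 and LEF1, and switches on target genes. Several targets are themselves brakes on the pathway, which makes their RNA a common gauge of it. In the oligodendrocyte lineage the pathway is known for its effect on the timing of differentiation, and TCF7L2 is known as a factor of cells at the step from precursor to myelinating cell. In brain endothelium the pathway is known for building and keeping the blood-brain barrier.

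The files held 2775 ipsilateral and 2066 contralateral barcodes with 54788795 and 36063045 unique molecular identifiers (UMIs, a tag per captured RNA copy), and no barcode was shared. After filters, 2404 ipsilateral and 1899 contralateral cells were used. Clusters were named only from marker genes, hence "-like". Oligodendrocyte precursor (OPC)-like cells numbered 405 ipsilateral and 317 contralateral, committed precursor or newly formed oligodendrocyte-like cells (committed-like for short) 206 and 95, and mature oligodendrocyte-like cells (mature-like) 951 and 523. Markers of committed precursors and of newly formed oligodendrocytes peaked in the same clusters, so these stages are given together. The samples are labelled as oligodendrocytes, but the sort also held 433 ipsilateral and 471 contralateral neuroblast or neural progenitor-like cells (neuroblast-like), 125 and 181 endothelial-like cells, 115 and 115 astrocyte-like cells and 15 and 14 mural-like cells. Cluster 24 of the mature-like cells was nearly all ipsilateral, with 136 and 4 cells. Each side is a single library, so no difference has a replicate check, no test was made, and all intervals cover counting error only. In sums over a class, more RNA per cell and more cells with the RNA cannot be told apart, and shares of cells with a UMI are given for that reason.

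Levels are UMIs summed over the cells of a class, per 1000000 UMIs of that class (CPM). They are compared between classes for the same gene and not between genes. Tcf7l2, Ctnnb1, Axin2, Nkd1 and Znrf3 were detected along the oligodendrocyte lineage, and each had its own course through it. Tcf7l2 peaked in committed-like cells, Nkd1 was lowest there and highest in mature-like cells, Axin2 and Ctnnb1 were lowest in mature-like cells, and Znrf3 was highest in OPC-like cells, beyond counting error in the ipsilateral library and not in the contralateral one. Notum, Apcdd1 and Lef1 had between 0 and 13 UMIs per lineage class and library. Their RNA lay mainly in endothelial-like cells and, for Notum, in astrocyte-like cells as well.

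**Figure D1:**
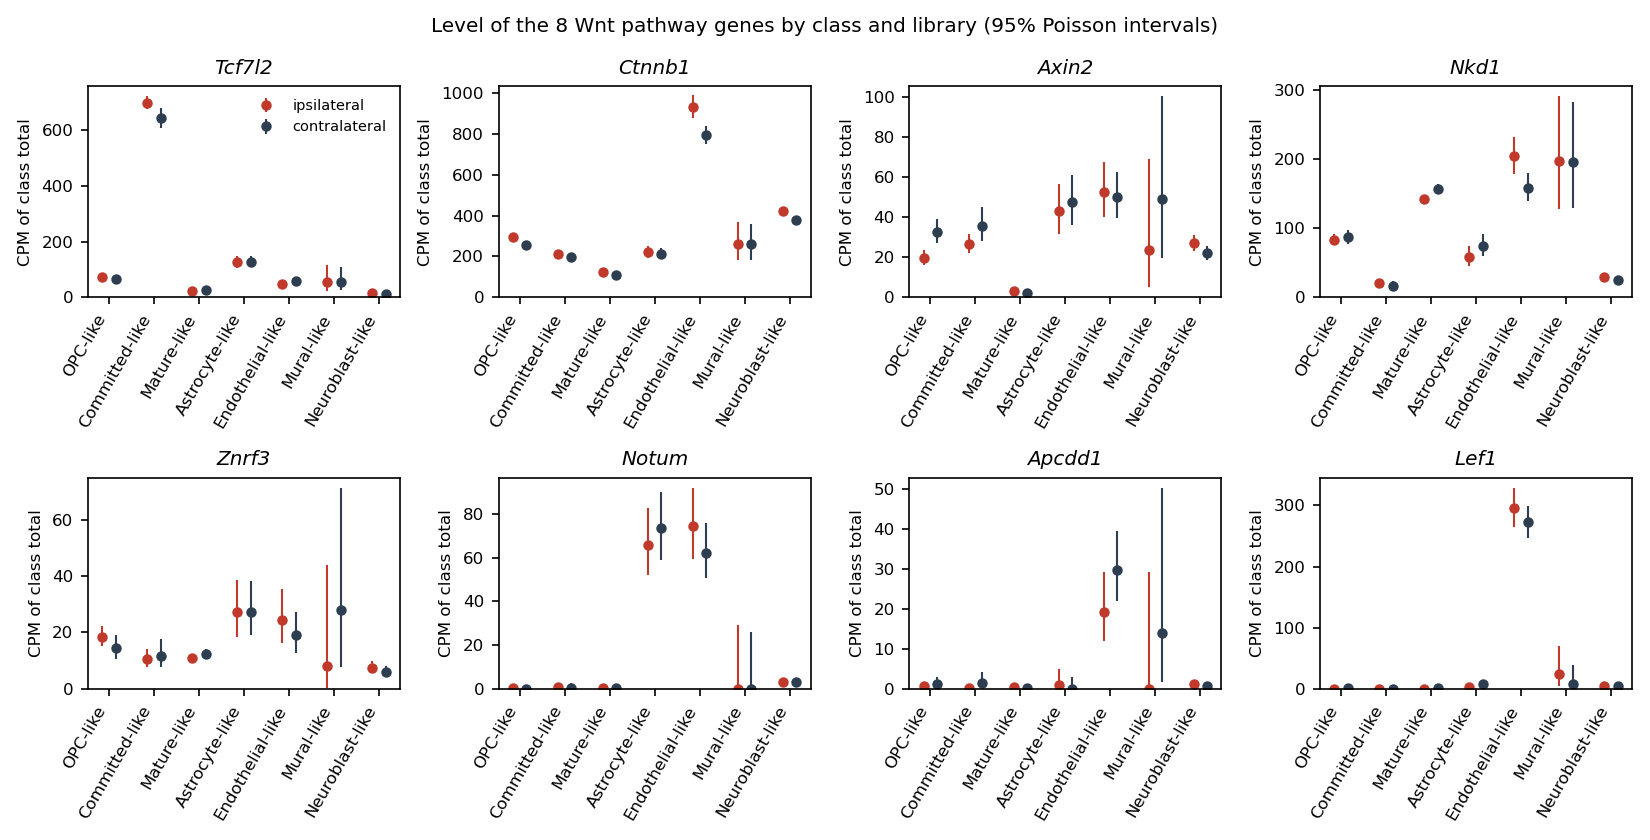
Level of each of the 8 genes (CPM of the class total, linear axis from 0, scales differ between panels) in 7 classes; red points are ipsilateral, dark points contralateral, and bars are exact Poisson 95% intervals. Tcf7l2 stands out in committed-like cells at 699 and 643 CPM, while Lef1, Apcdd1 and Ctnnb1 are highest in endothelial-like cells.

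Tcf7l2, a TCF/LEF transcription factor that binds beta-catenin, marked a narrow window of the lineage. Its level was 699 CPM (95% interval 675 to 723; 3304 UMIs) in ipsilateral and 643 CPM (609 to 679; 1308 UMIs) in contralateral committed-like cells. In OPC-like cells it was 71.1 CPM (64.3 to 78.3) ipsilaterally and 64.2 CPM (56.0 to 73.3) contralaterally. In mature-like cells it was 23.2 CPM (21.4 to 25.1) and 24.5 CPM (22.1 to 27.2). The stages did not overlap on either side. With every cell thinned to 5000 UMIs, 81.0% of ipsilateral and 76.6% of contralateral committed-like cells had a Tcf7l2 UMI, against 26.6% and 28.2% of OPC-like cells and 11.9% and 10.6% of mature-like cells. Before thinning, 96.6% and 95.8% of committed-like cells had one (median depth 20936 UMIs ipsilaterally, 20599 contralaterally), 51.4% and 42.6% of OPC-like cells (12502, 10102) and 41.5% and 41.3% of mature-like cells (28376, 27269). Neuroblast-like cells, with medians of 14730 and 14305 UMIs, gave thinned shares of 4.39% and 4.28%, the lowest of the classes and below all lineage stages. The thinned shares leave out 6 and 1 committed-like, 21 and 16 OPC-like and 28 and 3 mature-like cells that were shallower than 5000 UMIs.

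Within the committed-like class Tcf7l2 was not even. Cluster 15, led by the precursor receptor gene Gpr17 and the signalling gene Bmp4, had 277 CPM ipsilaterally and 230 CPM contralaterally. Cluster 4, in which the newly formed oligodendrocyte marker Enpp6 reached 1907 and 1864 CPM, had 962 and 811 CPM of Tcf7l2. Bmp4 and Gpr17 were among the leading genes of cluster 4 too. Its marker score was 0.95 for committed precursors and 0.86 for newly formed oligodendrocytes, so these clusters are not cleanly split by stage. In cluster 4 every cell of both libraries (111 and 58 cells) held a Tcf7l2 UMI, with a median level per cell of 773 CPM ipsilaterally and 609 CPM contralaterally and quartiles of 484 to 1061 CPM and 417 to 956 CPM. In cluster 15 the per-cell medians were 223 and 208 CPM. Single cells did not carry these sums: the largest cell of the class held 3.36% of ipsilateral and 8.03% of contralateral Tcf7l2 UMIs. The 6 mature-like clusters lay between 18.5 and 26.8 CPM ipsilaterally and between 11.9 and 30.3 CPM contralaterally, the lowest contralateral value coming from the 4 cells of cluster 24.

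Between the sides, Tcf7l2 in committed-like cells was slightly higher in the ipsilateral library, with a log2 ratio (5 CPM added to both levels) of 0.12 (counting interval 0.03 to 0.21). The difference was larger within clusters than over the class, at 0.24 (0.15 to 0.34) in cluster 4 and 0.26 (-0.01 to 0.54) in cluster 15. Weighted to the same mix of clusters it was 0.25, with each library clustered alone 0.26, and with no filter on cells 0.50, in all cases above 0. Stage markers differed between the sides in the same cells: in cluster 4 the myelin gene Mag was 1411 and 1070 CPM and the newly formed marker Bcas1 3107 and 2377 CPM, and their part in the Tcf7l2 difference was not tested. In OPC-like cells the Tcf7l2 ratio was 0.14 (-0.09 to 0.36) and in mature-like cells -0.07 (-0.22 to 0.09), so no difference was detectable there at this depth. Cluster 1, which stayed unnamed because it mixed markers of several lineage stages, had 666 CPM ipsilaterally and 219 CPM contralaterally. These levels come from the 21 and 68 cells left after doublet calls. Most of its ipsilateral barcodes had been called doublets (77 of 98, against 2 of 70 contralaterally), and it enters no class. The calls used a score cutoff set for each library alone, 0.154 ipsilaterally and 0.274 contralaterally.

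Outside the lineage, Tcf7l2 was next highest in astrocyte-like cells, at 125 CPM ipsilaterally and 127 CPM contralaterally, above OPC-like cells on both sides. Endothelial-like cells had 47.3 and 59.0 CPM and overlapped mural-like cells within their intervals. They overlapped OPC-like cells in the contralateral library (47.6 to 72.3 CPM, OPC-like 56.0 to 73.3) and lay below them in the ipsilateral one (35.5 to 61.7 CPM, OPC-like 64.3 to 78.3). Neuroblast-like cells were lowest, at 15.9 and 12.5 CPM, with most of it in the dividing clusters 10 (28.4 and 19.6 CPM) and 14 (21.1 and 18.7 CPM). Neuroblast cluster 6 held 0 ipsilateral and 4 contralateral UMIs, and cluster 19 held 2 and 0.

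The gene spans chr19:55741820-55933654 on the plus strand of GRCm38 (ENSMUSG00000024985, 22 annotated transcripts in GENCODE M21), and a second start lies inside it. The gene overlaps Ppnr on the same strand. The 250 bases before both starts are shown because Tcf7l2 carries the sharpest stage difference of the 8 genes and is itself a TCF/LEF gene. Both come from RefSeq on GRCm38.p6, plus strand, at chr19:55741560-55741809 and at chr19:55895071-55895320. Capitals mark CTTTG on either strand (CAAAG on the printed strand), the core of the TCF/LEF motif.
Tcf7l2 outer start: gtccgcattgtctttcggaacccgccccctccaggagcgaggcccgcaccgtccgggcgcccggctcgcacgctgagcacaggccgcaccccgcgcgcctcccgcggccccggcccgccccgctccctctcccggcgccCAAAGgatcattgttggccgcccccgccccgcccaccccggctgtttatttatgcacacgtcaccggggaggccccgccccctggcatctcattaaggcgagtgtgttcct
Tcf7l2 inner start: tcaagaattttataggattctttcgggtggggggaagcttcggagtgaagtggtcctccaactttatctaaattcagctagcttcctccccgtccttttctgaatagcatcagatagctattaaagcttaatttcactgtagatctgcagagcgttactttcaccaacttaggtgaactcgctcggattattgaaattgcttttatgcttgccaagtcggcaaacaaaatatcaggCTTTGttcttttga
The outer window, with 72.8% G and C, has the core 111 bases before the start. The inner window, with 40.8% G and C, has it 14 bases before the start as part of the longer form CTTTGTT. Windows with CTTTG on either strand made up 48.6% of the 32851 promoter windows of the table, and those with a longer form (CTTTG and then 2 letters that are each A or T, so that every longer form contains the core) 14.8%. Of the 8 genes, windows of Tcf7l2, Ctnnb1, Axin2, Nkd1 and Lef1 were read, 10 in all, of which 6 held the core and 2 a longer form. Some windows of Lef1 and of Ctnnb1 overlap each other, so these counts are not of separate stretches. These matches describe letters and not binding.

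Ctnnb1 encodes beta-catenin, which acts both as the signal carrier and as a part of cell junctions. It was highest in endothelial-like cells, at 933 CPM (877 to 990) ipsilaterally and 793 CPM (750 to 839) contralaterally. Neuroblast-like cells came next at 424 and 377 CPM, then OPC-like cells at 296 and 254 CPM, which overlapped mural-like cells at 261 and 259 CPM. Committed-like cells had 209 and 198 CPM, which overlapped astrocyte-like cells at 221 and 213 CPM, and mature-like cells were lowest at 126 and 109 CPM. Within the lineage its level was therefore highest in precursors, and among OPC-like cells it was higher in cluster 9, where the proliferation gene Mki67 was 132 and 129 CPM, than in cluster 11, where Mki67 was 4.85 and 3.02 CPM on 10 and 7 UMIs: Ctnnb1 was 332 and 320 CPM in cluster 9 and 231 and 224 CPM in cluster 11.

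As class sums, Ctnnb1 was the member with the most even difference between sides. The ipsilateral level was higher by a log2 ratio of 0.21 (0.10 to 0.33) in OPC-like cells, 0.20 (0.12 to 0.28) in mature-like cells, 0.23 (0.11 to 0.35) in endothelial-like cells and 0.17 (0.09 to 0.24) in neuroblast-like cells. In committed-like cells it was 0.08 (-0.08 to 0.25) and in astrocyte-like cells 0.05 (-0.20 to 0.30), where counting error covers 0. The OPC-like value followed the mix of clusters, since cluster 9 held 227 of 405 ipsilateral and 88 of 317 contralateral cells, and at the same mix of clusters it was 0.05. The mature-like value at the same mix was 0.17, which leaves out cluster 24 for having under 10 contralateral cells. Of the mature-like clusters cluster 5 stood apart with 129 and 95.8 CPM (0.41, 0.23 to 0.60). In clusters 0, 3, 8 and 17 the ratio was 0.11, 0.10, 0.09 and 0.11, and in cluster 24 -0.07, all with intervals that covered 0. The gene spans chr9:120929216-120960507 on the plus strand (ENSMUSG00000006932). It overlaps Mir7090 on the same strand and Ulk4 and 4930593C16Rik on the other strand. Whether the counting used strand is not given in the sources used here, and the part of overlapping genes on either strand in the counts was not tested.

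**Figure D2:**
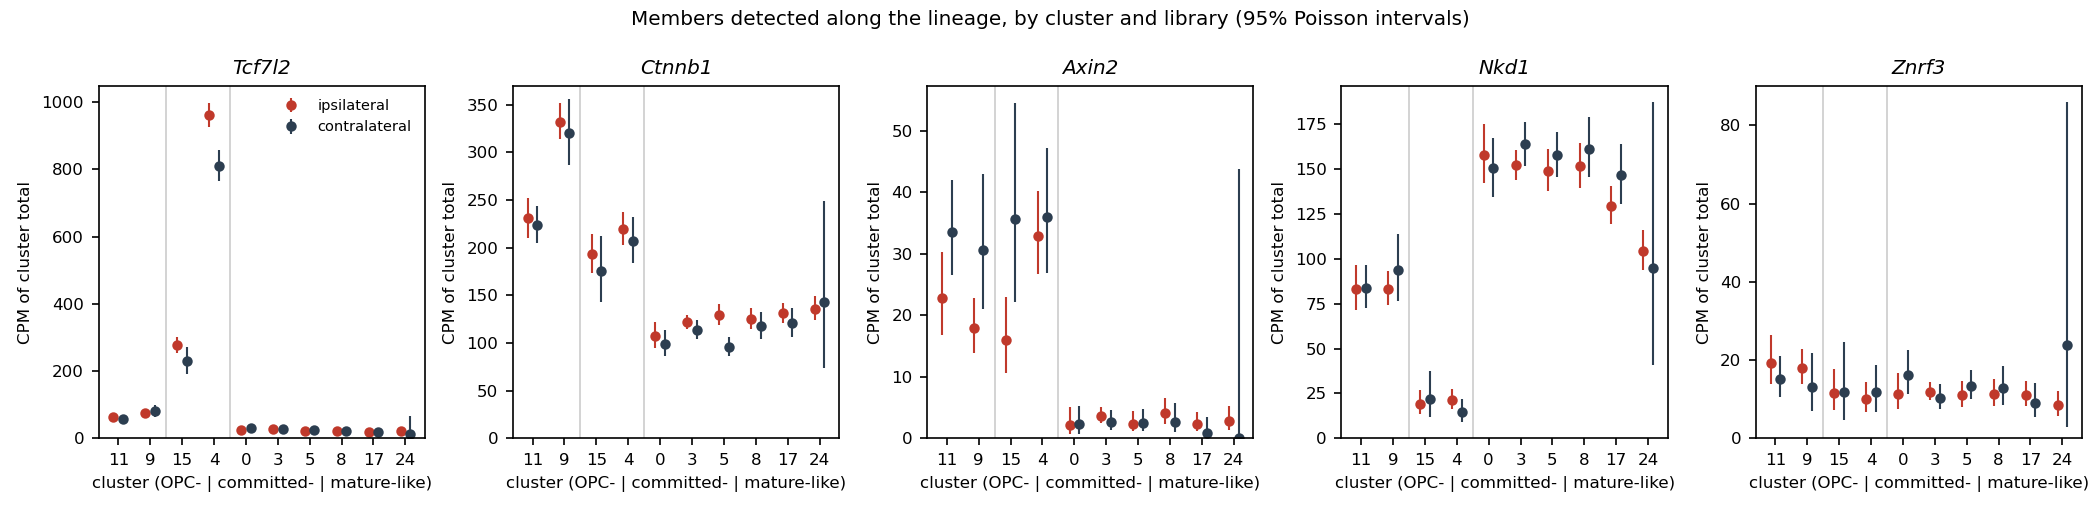
Levels of the 5 genes detected along the lineage (CPM of the cluster total, linear axis from 0) in OPC-like clusters 11 and 9, committed-like clusters 15 and 4 and 6 mature-like clusters; red is ipsilateral, dark contralateral, bars are exact Poisson 95% intervals. Tcf7l2 reaches 962 and 811 CPM in cluster 4, where Nkd1 is at 21.3 and 14.5 CPM; the wide contralateral bars of cluster 24 come from 4 cells.

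Axin2, a scaffold of the destruction complex and a target that feeds back on the pathway, was lower in ipsilateral than in contralateral OPC-like cells. Its level was 19.7 CPM (16.2 to 23.7; 113 UMIs in 87 of 405 cells) ipsilaterally and 32.7 CPM (26.9 to 39.4; 111 UMIs in 85 of 317 cells) contralaterally. The log2 ratio was -0.61 (-0.93 to -0.28), the lone member past 1.5-fold among the 5 with at least 20 UMIs in OPC-like cells. Over all 12173 genes measured in these cells, 1.68 percent were lower by more than 1.5-fold and 1.60 percent higher, so 1 of 5 rests on a single gene of modest counts. Both OPC-like clusters showed it, with 17.9 and 30.7 CPM in the dividing cluster 9 (-0.64, -1.16 to -0.10) and 22.8 and 33.6 CPM in cluster 11 (-0.48, -0.93 to -0.02). The ratio was below 0 in all 15 alternatives, from -0.70 to -0.41, and past 1.5-fold in 10 of them. Not all of these could differ from the main value, since a changed minimum of summed UMIs leaves the ratio as it is. The other Leiden resolutions gave the same 405 and 317 OPC-like cells, so the 10 include repeats of the main value. The ratio was -0.54 at the same mix of clusters and -0.47 in cells with no endothelial marker UMI.

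Thinned shares pointed the same way with overlapping intervals: 10.2% (7.32 to 13.6) of ipsilateral and 14.3% (10.5 to 18.8) of contralateral OPC-like cells had an Axin2 UMI. Unthinned shares were 21.5% and 26.8%. Astrocyte-like cells also express Axin2, at 43.0 and 47.6 CPM, and the 8 astrocyte markers summed to 512 CPM in ipsilateral and 698 CPM in contralateral OPC-like cells, with 7 and 6 of 8 detected and Aldh1l1 at 0 on both sides. Endothelial-like cells had 52.5 and 50.1 CPM of Axin2, and the 8 endothelial markers, all detected, summed to 51.6 and 55.4 CPM in OPC-like cells. The part of the astrocyte marker difference in the Axin2 difference was not tested.

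Over the later classes as sums, the Axin2 log2 ratio was smaller in size than in OPC-like cells. The intervals of OPC-like (-0.93 to -0.28) and committed-like cells overlap, and the difference between classes was not tested. Committed-like cells had 26.4 CPM (22.0 to 31.5) ipsilaterally and 35.9 CPM (28.1 to 45.1) contralaterally, a log2 ratio of -0.38 (-0.75 to -0.003). It lay in cluster 15, at 16.0 and 35.7 CPM (-0.96, -1.66 to -0.23), more than in cluster 4, at 33.0 and 36.0 CPM (-0.11, -0.55 to 0.34), although the 2 intervals overlap and the difference between clusters was not tested. Mature-like cells had 3.07 and 2.30 CPM and thinned shares of 1.73% and 0.96%, the lowest of the classes on both sides. Their log2 ratio was 0.15 (-0.06 to 0.34), made smaller by the added 5 CPM, and the plain fold was 1.34 (0.89 to 2.05). Endothelial-like (0.06), astrocyte-like (-0.13) and neuroblast-like cells (0.24, at 27.0 and 22.0 CPM) had log2 ratios whose intervals covered 0. With the intervals of both libraries pooled, Axin2 levels of the endothelial-like, astrocyte-like, mural-like, committed-like, OPC-like and neuroblast-like classes overlapped from each to the next in order. In the contralateral library alone, OPC-like cells (26.9 to 39.4 CPM) lay above neuroblast-like cells (18.8 to 25.6 CPM).

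Axin2 spans chr11:108920349-108950783 on the plus strand (ENSMUSG00000000142) and overlaps Gm11670 on the other strand. Its window of 250 bases before the start, chr11:108920099-108920348 (RefSeq, GRCm38.p6, plus strand), is shown because Axin2 was the measured member past 1.5-fold with 5 CPM added. It holds no CTTTG on either strand, which says only that these letters are not in this window.
Axin2: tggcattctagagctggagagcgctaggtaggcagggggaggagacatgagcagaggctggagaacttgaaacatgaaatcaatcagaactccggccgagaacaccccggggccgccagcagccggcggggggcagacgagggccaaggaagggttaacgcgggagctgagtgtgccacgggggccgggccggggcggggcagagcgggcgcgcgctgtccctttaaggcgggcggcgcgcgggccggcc

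Nkd1 encodes naked cuticle 1, a target that restrains Dishevelled, and within the lineage it was lowest in the stage where Tcf7l2 was highest. Mature-like cells had 142 CPM (138 to 147; 3894 UMIs) ipsilaterally and 157 CPM (151 to 164; 2323 UMIs) contralaterally. OPC-like cells had 83.3 and 87.2 CPM, and committed-like cells 20.5 CPM (16.6 to 25.0) and 16.7 CPM (11.6 to 23.4), the lowest of all classes. Neuroblast-like cells came next at 29.4 CPM (25.5 to 33.7) and 24.5 CPM (21.1 to 28.3), overlapping committed-like cells in the contralateral library alone. The course from precursor to mature cell was therefore a dip and not a ramp: thinned shares were 33.1% and 32.9% in OPC-like, 13.0% and 7.45% in committed-like and 51.7% and 56.3% in mature-like cells. Unthinned shares were 59.3% and 53.9%, 29.1% and 26.3%, and 92.6% and 96.2%.

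Outside the lineage, endothelial-like cells had 204 and 159 CPM of Nkd1 and mural-like cells 198 and 196 CPM, both overlapping mature-like cells on at least 1 side. In endothelial-like cells the ipsilateral level was higher, with a log2 ratio of 0.35 (0.10 to 0.61). Markers of several other cell types were also higher ipsilaterally in these cells. The 6 mural markers summed to 138 CPM ipsilaterally (5 of 6 detected, Kcnj8 at 0) and 64.7 CPM contralaterally (4 of 6, Acta2 and Tagln at 0). The 10 mature oligodendrocyte markers, all detected on both sides, summed to 984 and 682 CPM and the 10 OPC markers to 154 CPM (10 detected) and 71.1 CPM (9 detected, Sox6 at 0). The 5 committed precursor markers summed to 291 CPM (5 detected) and 109 CPM (4 detected, Gp1bb at 0), while the 8 astrocyte markers ran the other way at 116 and 164 CPM (6 detected on each side). The part of these markers in the Nkd1 and Ctnnb1 differences of endothelial-like cells was not tested. In mature-like cells Nkd1 was lower ipsilaterally by a small margin, at -0.14 (-0.21 to -0.06). That margin was -0.08 at the same mix of clusters, which leaves out the mostly ipsilateral cluster 24 for having under 10 contralateral cells. Cluster 24 had the lowest mature-like level of Nkd1, 105 CPM ipsilaterally, against 130 to 158 CPM in the other 5. In OPC-like cells the ratio was -0.06 (-0.26 to 0.14), and in committed-like cells 0.23 (-0.23 to 0.69) with a sign that changed between alternatives. The gene spans chr8:88521354-88594884 on the plus strand (ENSMUSG00000031661) and overlaps Gm45496 on the same strand.

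**Figure D3:**
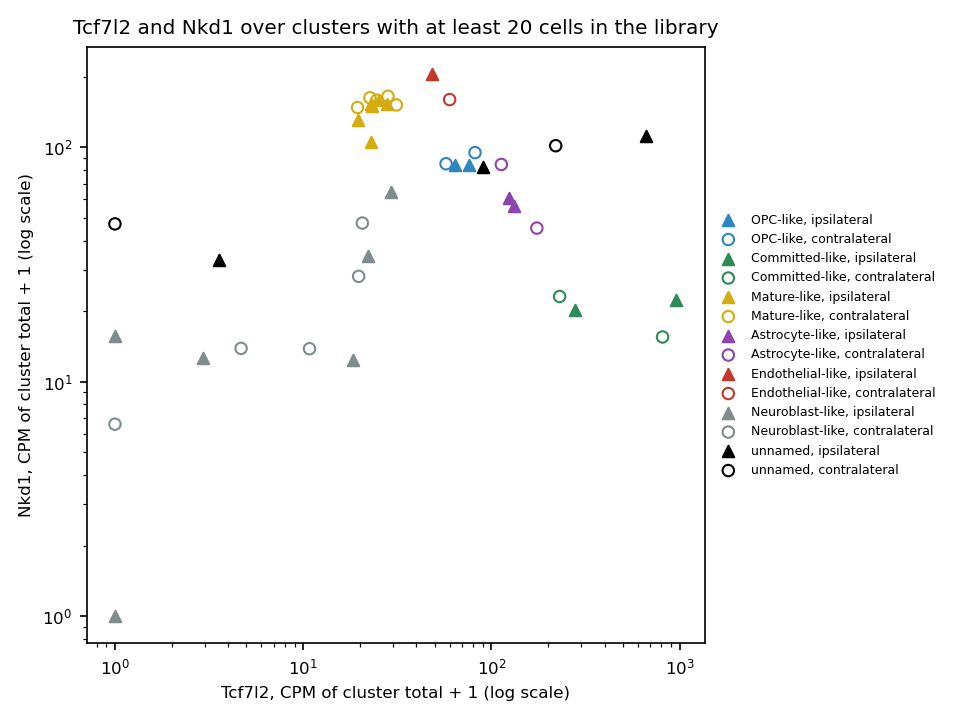
Tcf7l2 (x axis) against Nkd1 (y axis), both as CPM of the cluster total plus 1 on log axes, for clusters with at least 20 cells in the library; filled triangles are ipsilateral, open circles contralateral, colours are classes. Committed-like clusters lie to the right of and below mature-like clusters, which sit near the middle of the x axis. Several neuroblast-like clusters lie farther left.

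Single cells of all 3 stages held both RNAs. In OPC-like cells thinned to 5000 UMIs, 32 ipsilateral and 24 contralateral cells held UMIs of both Tcf7l2 and Nkd1, where the product of their shares gives 33.7 and 28.0 cells. In committed-like cells the counts were 16 and 5, beside products of 21.1 and 5.36. In mature-like cells they were 53 and 21, beside 56.8 and 31.0. All 6 counts were below their product, by the most in contralateral mature-like cells, and the gap was not tested. For Tcf7l2 and Axin2 they were 15 and 10 in OPC-like cells, beside 10.4 and 12.1, and 19 and 9 in committed-like cells, beside 18.6 and 9.19.

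Znrf3 encodes a membrane ubiquitin ligase that removes Frizzled receptors. In the ipsilateral library OPC-like cells, at 18.5 CPM (15.1 to 22.3), lay above committed-like cells at 10.6 CPM (7.85 to 13.9) and mature-like cells at 11.1 CPM (9.87 to 12.4). In the contralateral library the stages overlapped, at 14.4 CPM (10.7 to 19.1), 11.8 CPM (7.56 to 17.6) and 12.3 CPM (10.6 to 14.2). Thinned shares were 10.2% and 7.31% in OPC-like, 2.00% and 3.19% in committed-like and 4.23% and 5.77% in mature-like cells. Unthinned shares were 22.5% and 12.3%, 20.4% and 17.9%, and 25.3% and 26.6%. Astrocyte-like cells were highest at 27.2 and 27.4 CPM and overlapped endothelial-like cells at 24.5 and 19.0 CPM. The log2 ratio between sides was 0.27 (-0.11 to 0.66) in OPC-like cells, -0.11 (-0.62 to 0.40) in committed-like and -0.11 (-0.30 to 0.09) in mature-like cells. No difference between sides was detectable at this depth. Znrf3 spans chr11:5276324-5444847 on the minus strand (ENSMUSG00000041961).

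Notum, Apcdd1 and Lef1 were all but missing from the lineage. Lef1, of the same TCF/LEF family as Tcf7l2, had 0 UMIs in 206 ipsilateral and 95 contralateral committed-like cells. That count allows up to 0.634 and 1.47 CPM (3 counts per library). In OPC-like cells it had 1 and 3 UMIs and in mature-like cells 8 and 13 UMIs (0.29 and 0.88 CPM). The mature-like log2 ratio was -0.15 (-0.26 to -0.02), and without the added 5 CPM the plain fold was 0.33 (0.12 to 0.87), farther from 1 than that of Axin2 in OPC-like cells at 0.60 (0.46 to 0.79). Its level in endothelial-like cells was 296 CPM (265 to 329) ipsilaterally and 272 CPM (247 to 299) contralaterally, with UMIs in 69.6% and 70.7% of thinned cells (84.8% and 84.5% unthinned, at medians of 8491 and 8262 UMIs). Outside the small mural-like class no other class passed 7.25 CPM. Lef1 spans chr3:131110471-131224356 on the plus strand (ENSMUSG00000027985) and overlaps Gm42449 on the same strand and Gm43352 on the other strand.

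Apcdd1, a membrane protein that binds Wnt and LRP and inhibits the pathway, was likewise endothelial. It had 19.3 CPM (12.1 to 29.2; 22 UMIs) in ipsilateral and 29.8 CPM (21.9 to 39.7; 47 UMIs) in contralateral endothelial-like cells, a log2 ratio of -0.52 (-1.15 to 0.11). The 3 lineage classes held 1 to 12 UMIs each per library and stayed at or below 1.47 CPM. The gene spans chr18:62922231-62961179 on the plus strand (ENSMUSG00000071847).

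Notum, a secreted enzyme that inactivates Wnt ligands by removing their lipid, had 2 main sources. Endothelial-like cells held 74.4 CPM (59.5 to 92.0) ipsilaterally and 62.2 CPM (50.5 to 75.8) contralaterally. Astrocyte-like cells held 65.9 CPM (51.8 to 82.6) and 73.3 CPM (59.1 to 90.1), within the endothelial interval on both sides. The astrocyte-like signal lay wholly in cluster 12, at 83.2 and 96.1 CPM, and cluster 22, which has the water channel gene Aqp4 among its leading genes, held 0 UMIs in 22 and 28 cells. It was concentrated in few cells: 20 of 115 ipsilateral and 26 of 115 contralateral astrocyte-like cells had a Notum UMI, and the largest cell held 28.0% and 12.1% of the UMIs. Neuroblast-like cells held 23 and 24 UMIs (3.27 and 3.17 CPM), mostly in the dividing clusters 10 and 14 (27 and 17 UMIs over both libraries). Lineage classes held 0 to 4 UMIs each per library. Notum spans chr11:120653788-120661175 on the minus strand (ENSMUSG00000042988) and overlaps Notumos and Myadml2os on the other strand.

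Seen as a group, the 8 genes had no common direction between the sides across classes. Of those measured (at least 20 summed UMIs), 3 of 5 were above 0 in OPC-like cells (median log2 ratio 0.14, against -0.05 over all genes). In committed-like cells 3 of 5 were above 0 (0.08, against 0.00), and in mature-like cells 2 of 6 (-0.09, against 0.01). In endothelial-like cells, 6 of 8 were above 0 (0.18, against 0.01). In neuroblast-like cells, 7 of 7 were above 0 (0.18, against 0.03), and in astrocyte-like cells 1 of 6 (-0.07, against 0.00). Of all genes, 4998 of 12173 were above 0 in OPC-like, 5402 of 10713 in committed-like and 6332 of 12149 in mature-like cells. The counts were 4487 of 8807 in endothelial-like, 6856 of 12040 in neuroblast-like and 4914 of 9845 in astrocyte-like cells. Beyond Axin2 in OPC-like cells, no measured member passed 1.5-fold in these 6 classes with 5 CPM added. The share of all genes past 1.5-fold higher and lower was 2.36 and 1.47 percent in committed-like cells, 0.494 and 0.165 percent in mature-like cells and 4.88 and 3.45 percent in endothelial-like cells. It was 4.60 and 4.03 percent in astrocyte-like and 0.515 and 0.291 percent in neuroblast-like cells, and against such shares a count of 0 members is no result.

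**Figure D4:**
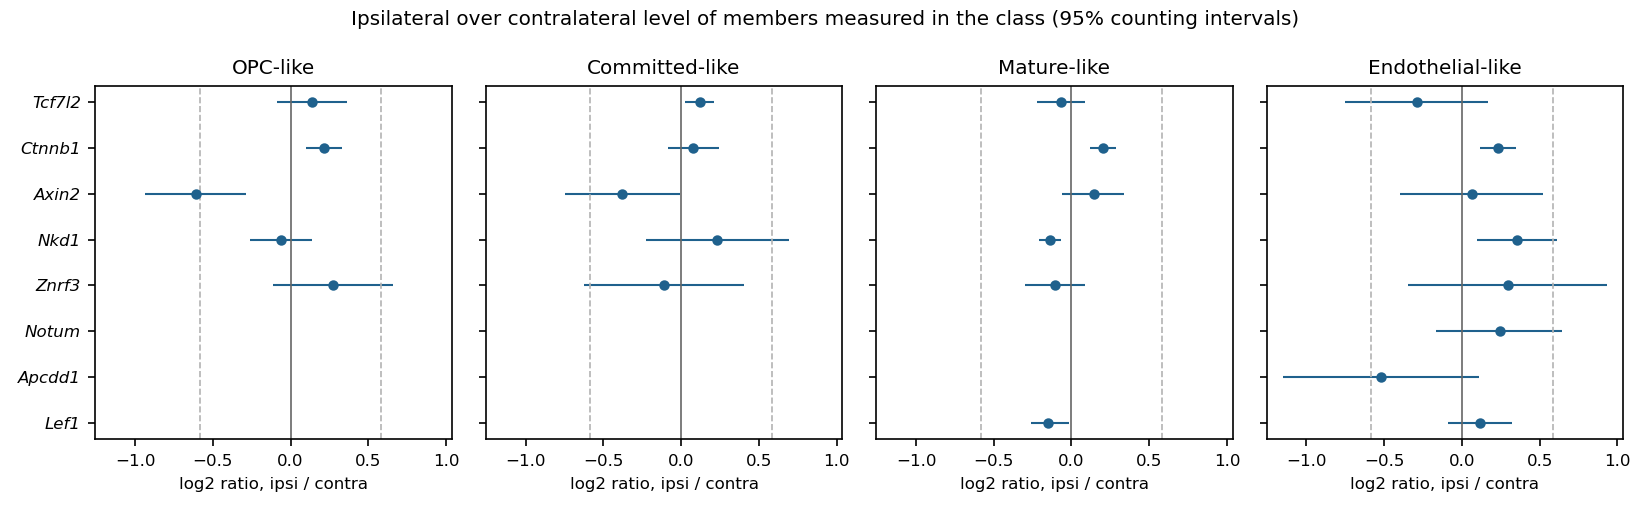
Log2 ratio of the ipsilateral over the contralateral level (x axis, 5 CPM added) for members with at least 20 summed UMIs in 4 classes; bars are 95% counting intervals, dashed lines mark 1.5-fold. Axin2 in OPC-like cells, at -0.61, is the lone point past a dashed line.

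The other 91 genes of a list of pathway components gave the setting. In OPC-like cells 58 were measured, 18 above and 40 below 0, with a median of -0.13. Of all 12173 genes, 7175 were below 0 too, with a median of -0.05. At the same mix of clusters, an alternative chosen after seeing the data, the list stood at 24 above and 34 below 0 with a median of -0.03, beside -0.02 for all genes. As summed, 1 was past 1.5-fold higher and 0 lower. The higher one was Myc, a growth regulator and known target, at 53.6 CPM ipsilaterally and 29.4 CPM contralaterally (0.77, 0.48 to 1.06). At the same mix of clusters its ratio was 0.39, under 1.5-fold. All 6 measured genes of ligands and their export were below 0 as summed. Among them were Wnt4 at 39.2 and 55.4 CPM (-0.45, -0.71 to -0.19) and the ligand carrier Wls at 29.1 and 35.9 CPM (-0.26, -0.56 to 0.04). At the same mix of clusters Wnt7a, Wnt10a and Porcn were above 0, at 0.16, 0.26 and 0.09, and Wnt7b was at -0.06. Of 12 nuclear partners, 10 were below 0, including the beta-catenin inhibitor Ctnnbip1 at 84.3 and 108 CPM (-0.34, -0.53 to -0.15). The 3 Dishevelled genes Dvl1, Dvl2 and Dvl3, which relay the receptor signal, were at -0.32, -0.37 and -0.31. Rnf43, the close relative of Znrf3 with the same role, was 39.0 and 53.0 CPM (-0.40, -0.66 to -0.14), where Znrf3 itself was 18.5 and 14.4 CPM. Tspan12, a membrane partner of Fzd4, was 71.9 and 94.8 CPM (-0.38, -0.58 to -0.17), and the cell cycle target Ccnd1 993 and 939 CPM (0.08, 0.02 to 0.14). At the same mix of clusters Wnt4 was at -0.22, Wls at -0.08, Ctnnbip1 at -0.20, Rnf43 at -0.23, Tspan12 at -0.31, Ccnd1 at -0.01 and the 3 Dishevelled genes at -0.29, -0.28 and -0.30.

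In committed-like cells 41 of these genes were measured, 22 above and 19 below 0 (median 0.01), with 1 past 1.5-fold each way. Of all 10713 genes measured there, 5402 were above 0. Wnt4 was lower ipsilaterally, at 29.2 and 53.1 CPM (-0.76, -1.10 to -0.43), as in OPC-like cells. Dkk3, of the Dickkopf family, was higher on 19 and 1 UMIs. Wls, at 122 and 171 CPM (-0.47, -0.66 to -0.28), and Dvl3, at 53.9 and 79.6 CPM (-0.52, -0.79 to -0.25), were also lower ipsilaterally. In mature-like cells 45 were measured, 26 above and 19 below 0 (median 0.01), beside 6332 of all 12149 genes above 0. The count past 1.5-fold was 1 higher, Bambi, a target that also damps BMP and TGF-beta receptors, at 17.4 and 7.37 CPM (0.85, 0.66 to 1.05), and 0 lower. The ligand Wnt3 was 70.4 and 61.5 CPM (0.18, 0.07 to 0.29) there, and the receptor Fzd3 25.8 and 32.9 CPM (-0.30, -0.44 to -0.15).

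In endothelial-like cells 37 were measured, 20 above and 17 below 0 (median 0.01), with 3 past 1.5-fold higher and 1 lower. Of all 8807 genes measured there, 4487 were above 0. The scaffold Apc was 53.4 and 88.2 CPM (-0.67, -1.09 to -0.26). Fzd8 (19.3 and 8.88 CPM) and Axin1 (20.1 and 9.52 CPM) were higher on 36 and 38 UMIs, and so was Porcn, which adds the lipid to Wnt ligands, on 26 UMIs. Ccnd1 was 151 and 221 CPM (-0.53, -0.80 to -0.27), and the barrier receptor Fzd4 183 and 225 CPM (-0.29, -0.54 to -0.05). Tcf7, another TCF/LEF factor, was 67.4 and 48.9 CPM (0.43, -0.01 to 0.86).

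**Figure D5:**
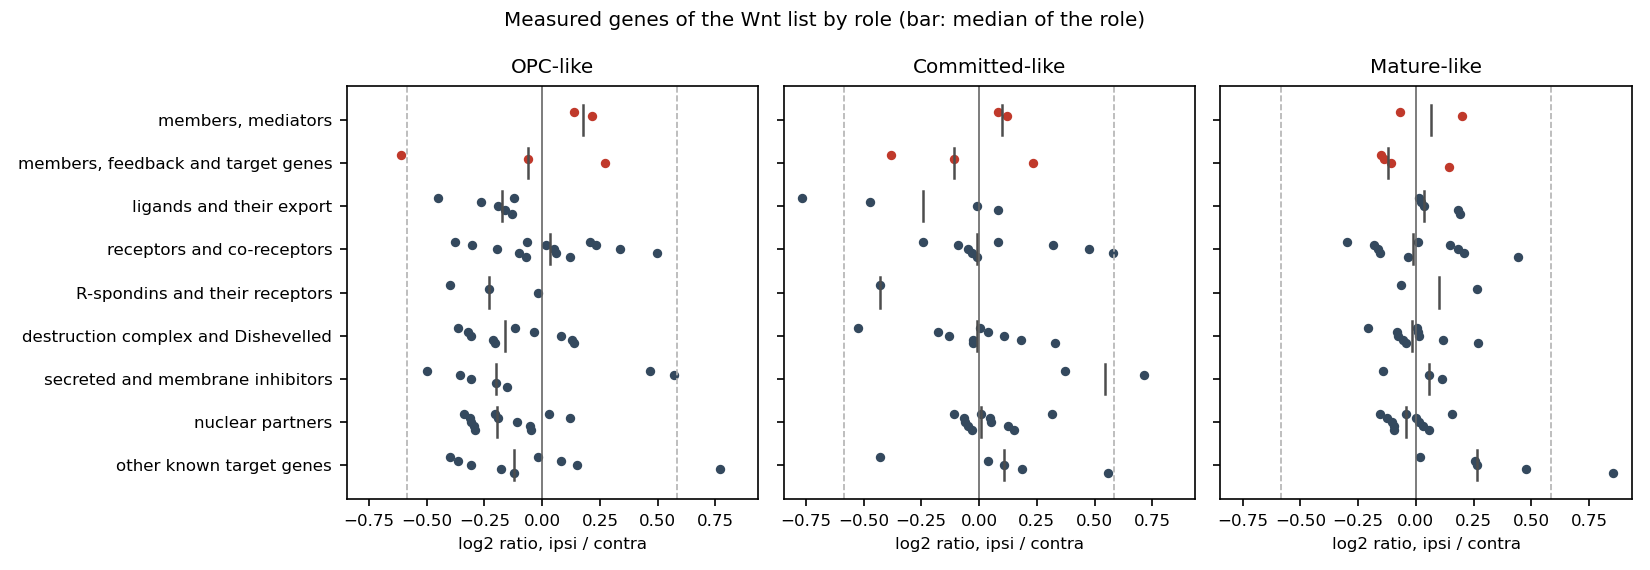
Log2 ratio of the ipsilateral over the contralateral level (x axis, 5 CPM added) of each measured gene of the pathway list by role, in 3 lineage classes; red points are the 8 genes, dark points the others, vertical bars role medians and dashed lines 1.5-fold. In OPC-like cells 40 of the 58 other genes lie left of 0, as do 7175 of all 12173 genes.

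Genes with the pattern most like each member over 41 profiles (a cluster in a library, at least 20 cells) were ranked by Pearson's r among 12013 genes, as a description, since profiles share libraries. For Tcf7l2 these were Man1c1 (0.92), Tns3 (0.90), Arhgap5 (0.90), Cdyl (0.89) and Epb41l2 (0.88). The nearest to Lef1 were Atp10a (0.94), Gch1 (0.94) and Pglyrp1 (0.94), and to Notum Tspan18 (0.92), Ifih1 (0.84) and Lama5 (0.82). Nkd1 was nearest to Syf2 (0.90), Aplp2 (0.89) and Mast4 (0.89), and Axin2 to Calu (0.91), Evi5 (0.90) and Dyrk2 (0.89). Ctnnb1 was nearest to Bnip2 (0.91), Sar1a (0.91) and Akt1 (0.90), and Znrf3 to As3mt (0.88), Ctso (0.88) and Endog (0.88). Apcdd1 had under 200 UMIs and was not ranked. Among the members themselves, the highest r was 0.82, between Apcdd1 and Lef1, followed by 0.67 for Notum and Lef1 and 0.65 for Tcf7l2 and Znrf3, while Tcf7l2 and Axin2 had 0.45, Tcf7l2 and Nkd1 0.22 and Tcf7l2 and Ctnnb1 -0.28.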

How the data were processed

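Single cells were sequenced in droplets (10x Genomics), 1 library a side. Per the submitters' processing notes, the deposited UMI counts per gene and barcode were made with Cell Ranger 3.1.0 on mm10; how reads were aligned and annotated is not given in the sources used here. Barcodes with at least 500 genes and at most 15% mitochondrial UMIs were kept. Both libraries were clustered together in scanpy 1.11.5 (10000-count scaling, 2000 variable genes without the 8 genes, 30 components, 15 neighbours, Leiden resolution 1, no integration). Scrublet, at its default expected rate of 0.05, called 101 ipsilateral and 14 contralateral barcodes, which were left out of sums. Clusters were named from marker lists, with scoring thresholds (minimum score 0.3, at least 3 markers, a second class below 0.6 of the best) set after the data were seen; 6.41% of ipsilateral and 9.64% of contralateral cells stayed unnamed. Clusters 10, 14 and 18 of the neuroblast-like class are led by cell cycle genes.

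For each class and library, UMIs were added up and scaled to CPM with exact Poisson 95% intervals. Log2 ratios had 5 CPM added to both levels, which draws low genes toward 0, with intervals from the exact binomial share of the summed counts. A gene was measured at 20 summed UMIs. Shares were taken after thinning each cell to 5000 UMIs, leaving out shallower cells. The ratio, its interval and the fold call, without the added 5 CPM, were tested on simulated OPC-like class sums. The simulation drew Poisson counts, so it holds no variation beyond counting error. Doublet calls, clustering, naming, thinning and the same mix of clusters were not tested in this way. PCR and droplet effects shared by a library are not in these intervals. Of the pathway list, genes were named by level and by size of ratio, up to 3 of each per role; a gene in 2 roles counts under both. Gene positions are from GENCODE M21 on GRCm38, the build called mm10. The 8 genes, the lists and the settings were chosen with earlier results of these data known.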

Additional observations from a re-analysis of the deposited data

Results flagged for a closer look

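Barcodes that failed the filter on cells also carried UMIs of 5 of the genes, above the 3 counts that a count of 0 allows. Over both libraries these were 56 UMIs of Tcf7l2, 98 of Ctnnb1, 5 of Axin2, 44 of Nkd1 and 6 of Znrf3. The 270 ipsilateral and 153 contralateral barcodes had medians of 1167 and 1659 UMIs, and their cell types were not named. Tcf7l2 stood at 80.6 CPM in the ipsilateral ones (40 UMIs) and 33.5 CPM in the contralateral ones (16 UMIs), whereas Nkd1 stood at 20.2 CPM (10 UMIs) and 71.2 CPM (34 UMIs).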

How the results depend on the processing

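Of the values of the 4 main comparisons under the alternatives, 55 stayed within their counting interval and 5 moved out of it. Some alternatives could hardly move a value: the other Leiden resolutions gave the same numbers of OPC-like and committed-like cells as the main setting. None of the 4 was past 1.5-fold, so there was no called direction to reverse. Signs did change: the median of the members was below 0 in 4 of 15 alternatives in committed-like cells and in 1 of 15 in OPC-like cells. The median of the members in committed-like cells (0.08) was -0.12 with no filter on cells and -0.095 at 1000 genes and 10% mitochondrial UMIs; the cause was not tested. The Tcf7l2 ratio in committed-like cells (0.12) was 0.50 with no filter on cells, 0.26 with each library clustered alone and 0.25 at the same mix of clusters. For single members, 353 values stayed within their interval and 7 moved. A changed minimum of summed UMIs cannot change a single member's ratio, so the values that stayed include repeats of the main ones. The Axin2 ratio in OPC-like cells was under 1.5-fold with 20 CPM added (-0.41), median-of-ratios scaling (-0.56), each cell weighted equally (-0.55), the same mix of clusters (-0.54) and cells with no endothelial marker UMI (-0.47). Of the pathway list in OPC-like cells at the same mix of clusters, which was tried after seeing the data, Myc moved to 0.39, against 0.77 as summed. The Nkd1 ratio in committed-like cells ran from -0.85 with no filter on cells to 0.28. Of the shares of cells, 88 moved with the thinning depth and 40 did not. Newly formed cells could not be separated from committed ones, so they have no median of their own. No paired analysis was possible because each side has a single library. With 1 library a side, neither the spread between animals nor between libraries was measured.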
